A study of Mus musculus with 6 samples.

Results

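The genes described here are 9 adhesion and ephrin-system genes of mouse olfactory sensory neurons (OSNs), taken by symbol from the 24564 gene symbols in the matrices: Kirrel, Kirrel2, Kirrel3, Epha5, Efna5, Efna3, Ncam1, Ncam2 and Sema7a. They were measured by droplet single-cell RNA-seq, in which each captured transcript is counted once as a unique molecular identifier (UMI), in 6 libraries of main olfactory epithelium. In the 2 swap libraries (Cbx*/* with Cre) the coding sequence of Cbx1, a heterochromatin protein gene, is exchanged for that of its paralog Cbx5 where Cre has acted. The 2 control libraries lack the exchange: control replicate 1 is labelled wild type with Cre, and control replicate 2 carries Cbx*/* without Cre. The tetOP2 library (gg8-tTA; tetOP2iresGFP) carries a transgene that drives the olfactory receptor Olfr17 (P2) together with GFP under the tTA activator, which is made from the Gng8 promoter in immature OSNs. The gg8tTA control library carries gg8-tTA alone, so both libraries of this pair hold the activator, and each is a single library.

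Each mature OSN expresses 1 olfactory receptor gene, and axons of OSNs that chose the same receptor gather in the same glomeruli of the olfactory bulb. Axon sorting is associated with cell surface proteins whose levels differ with the receptor: Kirrel2 and Kirrel3 are immunoglobulin proteins that each bind their own kind on other axons, and the receptor tyrosine kinase Epha5 and its membrane-anchored ligand Efna5 bind each other and repel. Nqo1 is a marker of OSNs of the dorsal zone of the epithelium, whereas Ncam2 (OCAM) marks ventral axons.

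On GRCm38.p6, RefSeq places Kirrel and Efna3 on chromosome 3, Epha5 on 5, Kirrel2 on 7, Kirrel3, Ncam1 and Sema7a on 9, Ncam2 on 16 and Efna5 on 17. Kirrel2 spans chr7:30447766-30457515 and Kirrel3 chr9:34485853-35040807, so the paralogs are not neighbours.

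The start regions of 3 of the genes are shown because the comparisons turn on them. Across receptors, with libraries pooled, the levels of Kirrel2 and Epha5 went together and that of Efna5 went the opposite way. Each is 250 bases before to 50 after a RefSeq start site on GRCm38.p6, read 5′ to 3′ on the minus strand. Kirrel2 lies at chr7:30457466-30457765, Epha5 at chr5:84417333-84417632 and Efna5 at chr17:62881268-62881567. Capitals mark the letters CCCNNGGG in Kirrel2, which read as a site of the early B-cell factors, and TAATTA in Epha5, which reads as a homeodomain site.
Kirrel2: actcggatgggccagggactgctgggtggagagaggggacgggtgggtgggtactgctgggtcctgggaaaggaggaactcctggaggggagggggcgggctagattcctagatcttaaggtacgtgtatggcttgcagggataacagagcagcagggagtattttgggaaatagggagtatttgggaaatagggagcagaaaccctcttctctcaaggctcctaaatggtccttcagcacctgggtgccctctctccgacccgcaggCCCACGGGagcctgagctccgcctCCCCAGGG
Epha5: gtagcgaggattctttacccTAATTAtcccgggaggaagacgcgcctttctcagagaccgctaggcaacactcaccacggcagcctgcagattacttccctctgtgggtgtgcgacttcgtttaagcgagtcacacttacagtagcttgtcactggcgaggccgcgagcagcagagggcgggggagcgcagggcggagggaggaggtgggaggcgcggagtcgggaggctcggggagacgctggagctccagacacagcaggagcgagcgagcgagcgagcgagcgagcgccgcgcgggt
Efna5: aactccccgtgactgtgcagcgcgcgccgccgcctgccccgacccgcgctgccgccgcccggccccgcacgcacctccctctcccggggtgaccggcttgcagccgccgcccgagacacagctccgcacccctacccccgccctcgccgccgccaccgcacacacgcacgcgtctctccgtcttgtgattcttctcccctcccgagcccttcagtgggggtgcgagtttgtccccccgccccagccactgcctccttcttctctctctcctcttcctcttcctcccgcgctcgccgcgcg
All 3 motifs searched were palindromes, so 1 strand was read and none overlapped another. CCCNNGGG was in 13.7% of 32851 RefSeq start regions of this length, TAATTA in 5.29%, and the cyclic AMP response element TGACGTCA in 1.79%. The table held 8 start regions of 7 members, 2 of them of Efna3. Kirrel2 was the only member with CCCNNGGG, Epha5 the only member with TAATTA, and no member held TGACGTCA. The entries of Kirrel3 and Ncam1 were not matched. The GC content was 59.7% for Kirrel2, 64.3% for Epha5 and 73.3% for Efna5, against a median of 52.7% over all start regions.

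The libraries held between 32005196 and 63277934 UMIs in total. Clustering with fixed marker genes gave 520 to 1211 mature and 204 to 706 immature OSNs per library, and the cells between these stages formed clusters led by Calb2 and Gap43 that were left without a name. The libraries shared few cell barcodes, 83 of them occurring in 2 or more. The targeted gene matched the labels: Cbx1 was at 0.715 and 3.20 CPM (UMIs of the gene per 1000000 UMIs of the summed cells) in mature OSNs of the swap libraries and at 76.6 and 154 CPM in those of the controls, while Cbx5 was at 75.1 and 87.8 CPM against 19.6 and 29.0 CPM. Olfr17 was at 5373 CPM in the tetOP2 library and at 30.7 CPM or less in the other 5. Sustentacular cells, the supporting cells of the epithelium, served as a measure of free RNA, since they are not neurons. Whether they make transcripts of these genes themselves was not tested. Ncam1 ranged from 19.4 to 350 CPM in sustentacular cells, highest in control replicate 2.

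The members were first compared between the stages of the OSN lineage. Of the 9 genes, 7 rose from immature to mature OSNs and 2 fell, the neural cell adhesion molecules Ncam1 and Ncam2. The rises were largest for Epha5 and Kirrel. A gene counted as changed when the edgeR quasi-likelihood test over the 6 libraries gave an adjusted p (Benjamini-Hochberg over all genes tested) under 0.05 and the log2 fold change passed 0.58 in size. Among all 11420 genes tested, 22.4% rose and 22.0% fell, so a change between the stages was common.

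Levels are given in the order swap replicates 1 and 2, control replicates 1 and 2, tetOP2 and gg8tTA control. Epha5, the kinase, was at 15.4, 9.52, 21.5, 21.9, 5.15 and 8.98 CPM in immature OSNs and at 366, 279, 354, 431, 116 and 115 CPM in mature OSNs. The stages did not overlap in any library, and the log2 fold change was 4.44 ± 0.11 (SE, adjusted p = 4.1e-10). Both libraries with gg8-tTA were lower than the other 4 at either stage. The labels do not say how these 2 were prepared relative to the other 4, and no comparison between the sets was made. Efna5, its ligand, was already at 67.9, 81.7, 75.0, 62.7, 61.8 and 92.0 CPM in immature OSNs and reached 266, 390.4, 269, 307, 277 and 311 CPM in mature OSNs. The change of Efna5 was 2.17 ± 0.07 on the log2 scale (adjusted p = 3.3e-09). Efna3, a second ligand of the same class, was low throughout, between 0.343 and 5.04 CPM in immature and between 3.98 and 19.9 CPM in mature OSNs, and rose by 2.06 ± 0.18 (adjusted p = 3.2e-06).

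Kirrel2 was at 18.6, 14.0, 14.0, 25.7, 16.5 and 13.6 CPM in immature OSNs and at 63.9, 50.4, 60.3, 82.4, 118 and 85.1 CPM in mature OSNs. Kirrel3 was at 8.75, 5.41, 4.73, 5.91, 6.18 and 5.72 CPM in immature and at 43.1, 53.9, 35.1, 32.7, 29.5 and 59.1 CPM in mature OSNs. Every library thus had more of both genes in the mature cells, with log2 fold changes of 2.28 ± 0.15 for Kirrel2 (adjusted p = 2.8e-07) and 2.90 ± 0.16 for Kirrel3 (adjusted p = 7.9e-08). Kirrel (Neph1), a relative of the pair best known from the kidney, was nearly absent from immature OSNs (0.687 to 4.22 CPM) and at 19.8 to 70.4 CPM in mature OSNs (log2 fold change 4.29 ± 0.14, adjusted p = 3.0e-09). Sema7a, a membrane-anchored semaphorin, went from 10.3 to 16.4 CPM in immature OSNs to 68.0 to 117 CPM in mature OSNs (2.76 ± 0.09, adjusted p = 2.3e-09).

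Ncam1 was at 1697, 2069, 1567, 2052, 1609 and 1592 CPM in immature OSNs and at 945, 1178, 928, 1265, 996 and 1056 CPM in mature OSNs. It fell in every library, by 0.59 ± 0.05 on the log2 scale (adjusted p = 1.1e-06). That lies at the edge of the fold limit: the change was −0.57 with DESeq2 or without either swap library, and not counted there. Over all processing alternatives, 5 calls of a member between the stages were lost, these included. Ncam2 was at 133, 134, 144, 253, 80.4 and 75.1 CPM in immature OSNs and at 73.2, 69.3, 84.5, 124, 45.1 and 45.6 CPM in mature OSNs, a fall of 0.73 ± 0.05 (adjusted p = 6.4e-07). In the unnamed cells between the stages, the level of Epha5 lay between 44.3 and 185 CPM and that of Efna5 between 134 and 176 CPM. In each library both lay between those of the 2 stages. Not all members did so by share of cells with a UMI, unmatched for depth. The median share of Kirrel3 was 35.1% in the unnamed cells, against 5.06% in immature and 28.9% in mature OSNs. That of Ncam2 was 50.5%, against 48.0% and 35.5%. Ncam1 was in nearly all cells of each class, and the other members lay between the stages.

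**Figure D1:**
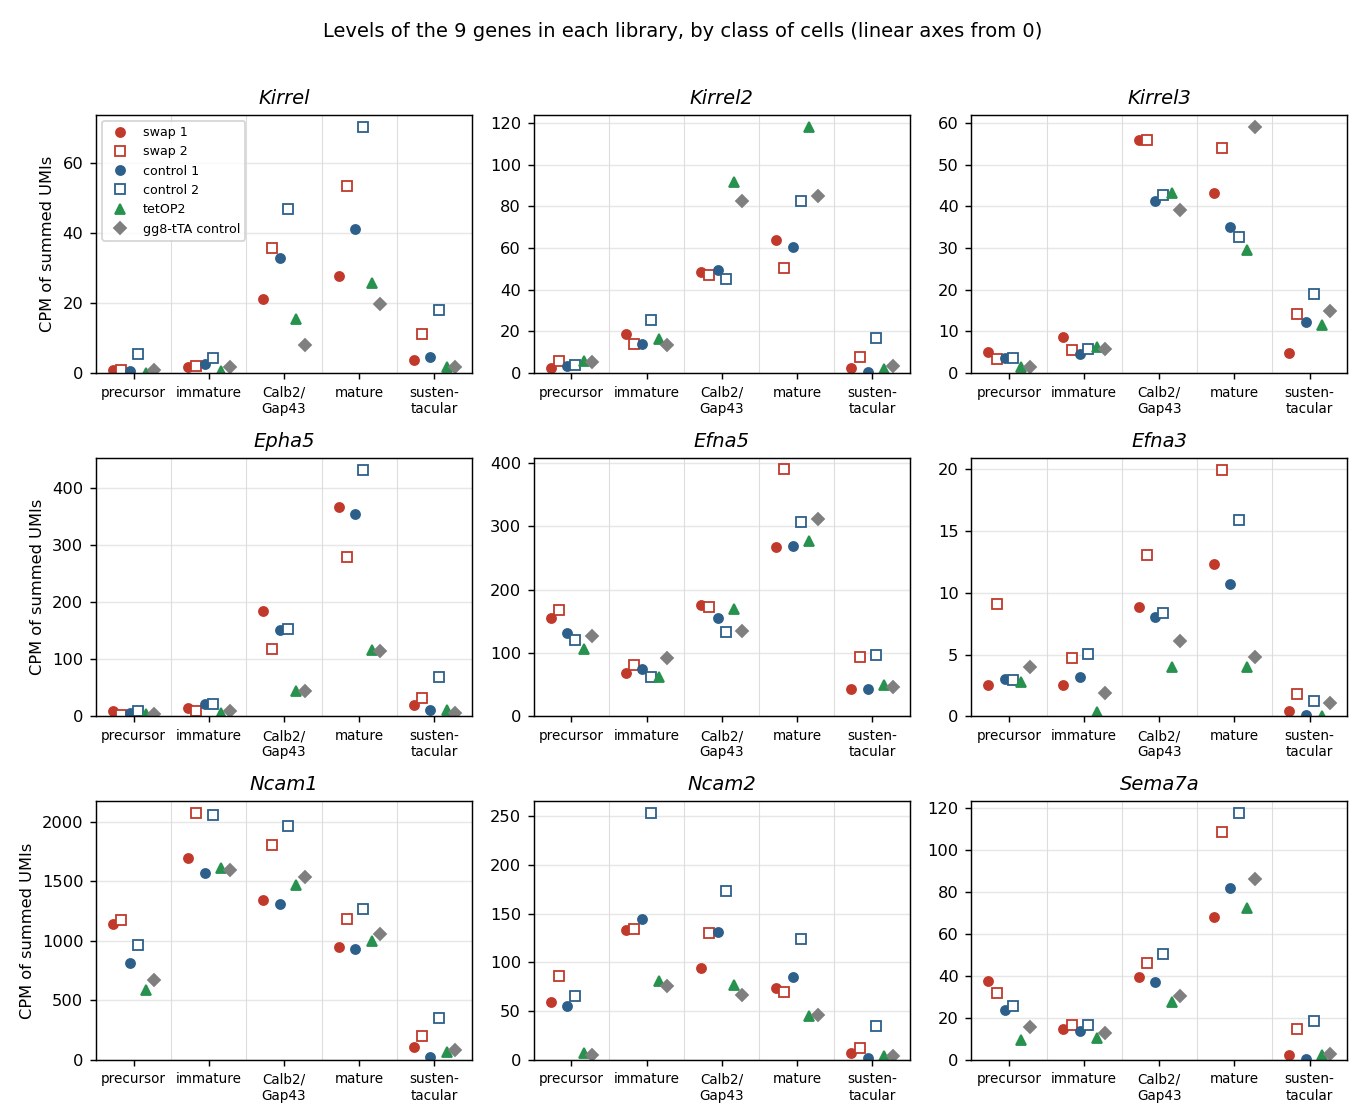
Levels of the 9 genes in CPM (linear axes from 0) in precursors, immature OSNs, the unnamed cells led by Calb2 and Gap43, mature OSNs and sustentacular cells, 1 point per library. Kirrel, Kirrel2, Kirrel3, Epha5, Efna5, Efna3 and Sema7a sit higher in mature than in immature OSNs in every library, and Ncam1 and Ncam2 lower.

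The share of cells with a UMI of a gene was compared after drawing 3000 UMIs from each cell, which left out 140 immature, 254 mature and 352 sustentacular cells with fewer. After thinning, Kirrel2 was seen in 17.5% ± 3.60 of mature OSNs (SD, n = 6 libraries) and Kirrel3 in 11.4% ± 3.04, against 1.26% and 3.25% of sustentacular cells. Epha5 was seen in 48.2% ± 15.8 and Efna5 in 50.8% ± 4.51 of mature OSNs, against 4.36% and 13.3% of sustentacular cells. In immature OSNs, the mean shares were 1.53% for Kirrel3 and 3.33% for Epha5, below the means in sustentacular cells. They are read neither as expression nor as its absence. Sustentacular cells may make these transcripts themselves, which was not tested, so their shares are not a known floor. By library, the immature share was the higher one in swap replicate 1 for Kirrel3 (1.82% against 1.09%) and in control replicate 1 (5.03% against 2.87%) and gg8tTA control (1.95% against 1.22%) for Epha5. The immature shares of Kirrel2 (mean 4.65%) were above the sustentacular ones in every library, and those of Efna5 (mean 17.5%) in all but control replicate 2 (16.0% against 20.9%). Without thinning, the median shares over libraries in mature OSNs were 44.8% for Kirrel2, 28.9% for Kirrel3, 81.3% for Epha5 and 81.6% for Efna5. Median UMIs per cell ranged from 11265 to 12512 in mature OSNs, from 8992 to 12064 in immature OSNs and from 11777 to 20198 in sustentacular cells.

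Among 40 further genes of axon guidance and adhesion, listed by family, 24 were tested between the stages and 16 changed, 6 higher and 10 lower in mature OSNs. The median log2 fold change of the 24 was −0.29, against −0.04 over all genes and 2.28 over the 9 members. Itgb1, the integrin subunit of a Sema7a receptor, fell by 1.51, the semaphorin coreceptor Nrp1 fell by 1.33, and St8sia2, which adds polysialic acid to Ncam1, fell by 3.35. The semaphorin receptor component Plxna3 rose by 1.41, the Eph kinase Epha7 by 1.72 and the contactin Cntn4 by 0.99.

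Whether Kirrel2 and Kirrel3, and Epha5 and Efna5, exclude each other was read from single mature OSNs thinned to 3000 UMIs. In both pairs, fewer cells held both genes than independence would give, in every library, but a fair number of cells did hold both. The odds ratio compares the odds of seeing one gene in cells with and without the other; a log2 odds ratio below 0 means fewer cells with both.

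Cells with both Kirrel2 and Kirrel3 numbered 8 of 476, 12 of 903, 9 of 929, 16 of 1158, 4 of 529 and 13 of 520, in the order of libraries above. In total 62 cells held both where independence gives 84.3. The log2 odds ratios were −0.27, −0.62, −0.71, −0.48, −1.34 and −0.07, with a mean of −0.58 ± 0.44 (SD, n = 6). All 6 were below 0, and an exact two-sided sign-flip permutation test over libraries gave p = 0.03125, the smallest p that 6 libraries allow (adjusted over the 2 pairs, 0.03125). Cells with only Kirrel2 made up 12.7% to 22.5% of mature OSNs and cells with only Kirrel3 6.62% to 13.1%. Thinned to 1000 UMIs, the mean was −0.27 (exact permutation p = 0.125).

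Epha5 and Efna5 were both seen in 23.3%, 26.2%, 25.8%, 30.3%, 13.4% and 13.3% of mature OSNs, 1079 cells in total where independence gives 1194. Their log2 odds ratios were −1.02, −0.56, −0.41, −1.05, −0.14 and −0.46, with a mean of −0.61 ± 0.36 (SD, n = 6; exact sign-flip permutation p = 0.03125, again the smallest possible and 0.03125 after adjustment). The libraries differed several-fold in this measure, and tetOP2 lay closest to 0. Without thinning, the mean was 0.52 (exact permutation p = 0.1875).

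**Figure D2:**
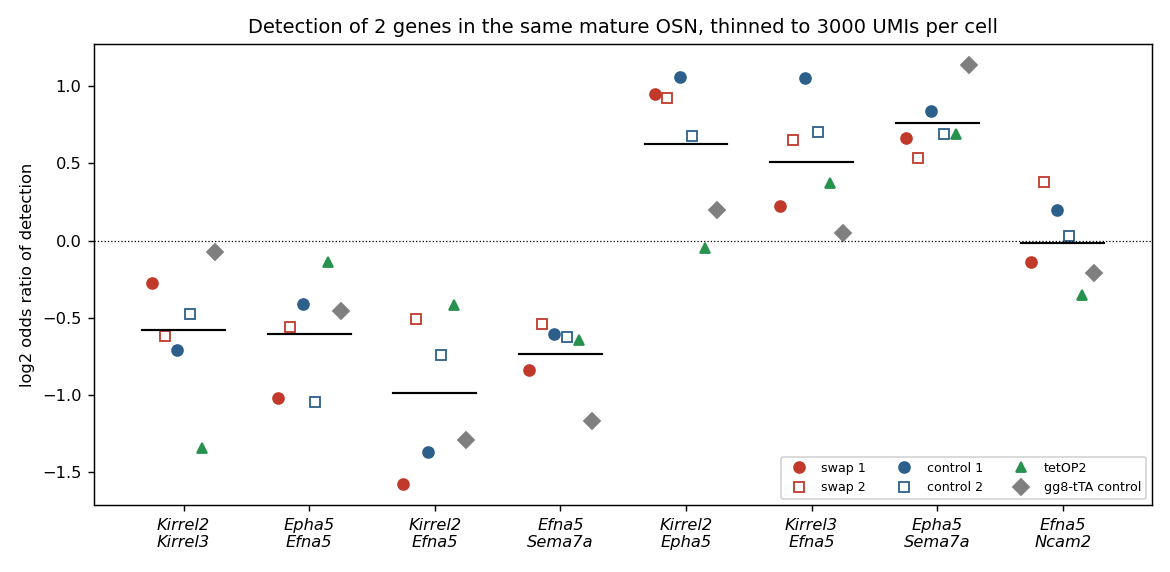
Log2 odds ratio of seeing both genes of a pair in the same mature OSN (cells thinned to 3000 UMIs), 1 point per library, with a line at the mean and 0 as independence, for 8 pairs. Kirrel2 with Kirrel3 and Epha5 with Efna5 lie below 0 in all 6 libraries.

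The other combinations are given without a test. Kirrel2 and Efna5 had a mean log2 odds ratio of −0.98 ± 0.49 and Efna5 and Sema7a one of −0.74 ± 0.23, below 0 in 6 of 6 libraries each. Epha5 and Sema7a went together (0.76 ± 0.21, above 0 in 6 of 6), as did Kirrel3 and Efna5 (0.51 ± 0.36, 6 of 6) and Kirrel2 and Epha5 (0.63 ± 0.45, 5 of 6, the exception being tetOP2). Kirrel3 and Epha5 had −0.48 ± 0.29 (below 0 in 6 of 6), Kirrel2 and Sema7a 0.46 ± 0.33 (above 0 in 5 of 6), and Kirrel3 and Sema7a −0.24 ± 0.54 (below 0 in 3 of 6).

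Among cells of the same receptor, the values lay closer to 0 or on its other side. The 2494 mature OSNs used had an assigned receptor and fell in 894 combinations of library and receptor with at least 2 cells. Olfr17 cells of the tetOP2 library were left out. The log2 odds ratio of Kirrel2 and Kirrel3 was −0.53 over all cells and 0.18 when counted within receptors, where 62 combinations carried information. For Epha5 and Efna5 it was −0.89 over all cells and −0.29 within receptors, from 282 combinations. For Kirrel2 and Efna5 the values were −1.05 and −0.43, and for Kirrel3 and Efna5 0.49 and 0.39. The values over all cells summed the libraries, whereas those within receptors were also within libraries, so differences between libraries enter only the former. Per library, with tetOP2 Olfr17 cells kept, Kirrel2 and Kirrel3 had a mean of −0.58 over all cells and 0.32 within receptors, where defined. Epha5 and Efna5 had −0.61 and −0.18. The first mean of each pair took all thinned mature OSNs, with 0.5 added to each count. The second took only receptors with at least 2 cells, with nothing added. A library was left out of the second where no receptor held a cell with both genes and also one with neither. That can raise the mean, so the means over all cells and within receptors are not like measures. No interval was computed for the values within receptors, and cells of 1 library are not independent.

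In immature OSNs no exclusion could be read. Kirrel2 and Kirrel3 were seen together in 2 cells where independence gives 1.54, and Epha5 and Efna5 had a mean log2 odds ratio of −0.0063 (exact permutation p = 1), with the mean shares of Kirrel3 and Epha5 below those in sustentacular cells.

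The dependence on the chosen receptor was tested over sums of cells that expressed the same receptor in the same library. A receptor was assigned to a mature OSN from 3 or more UMIs. Olfr17 cells of the tetOP2 library were left out beforehand, so Olfr17 was not among the receptors tested. With at least 3 cells per sum and at least 3 libraries per receptor, 24 receptors remained, with 78 sums of 357 cells. Of the 9 genes, 7 differed between receptors (F test of edgeR over the receptors with library as a covariate, adjusted p under 0.05), whereas 6.19% of all 10579 genes did. The adjusted p was 1.1e-42 for Epha5, 3.8e-37 for Efna5, 4.0e-25 for Ncam2, 2.2e-20 for Kirrel, 3.1e-15 for Sema7a, 6.9e-07 for Kirrel2 and 9.3e-05 for Kirrel3. Efna3 (adjusted p = 0.91) and Ncam1 (0.26) did not pass, although Ncam1 did with relative log expression size factors (0.012). With DESeq2 the call of Kirrel2 was lost (adjusted p = 0.18), and with sums of at least 4 cells that of Kirrel3 was (0.99). The filter filterByExpr left Kirrel, Kirrel2 and Kirrel3 untested.

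Over the 24 receptors, Epha5 ranged from 52.4 CPM in Olfr827 cells to 926 CPM in Olfr449 cells, with a median of 349.8. Efna5 ranged from 77.0 CPM in Olfr910 cells to 644 CPM in Olfr827 cells, with a median of 274. In these pooled sums, the receptor with the lowest Epha5 was thus the receptor with the highest Efna5, but receptors differ in the libraries they pool. By library, Olfr827 held both places in gg8tTA control (0 and 1033 CPM). In swap replicate 2 it had the highest Efna5 (638 CPM), but Epha5 at 111 CPM, against 83.2 CPM in Olfr769 cells. In control replicate 1 it had the lowest Epha5 (58.8 CPM), but Efna5 at 294 CPM, against 618 CPM in Olfr239 cells (11 UMIs). Kirrel2 ranged from 0 (Olfr827) to 159 CPM (Olfr449), Kirrel3 from 0 (Olfr1370 and Olfr365) to 138 CPM (Olfr1030), and Kirrel from 0 in 6 receptors to 149 CPM (Olfr1440). Sema7a went from 21.5 to 242 CPM and Ncam2 from 0 in 4 receptors to 219 CPM. Ncam1, by contrast, stayed between 779 and 1463 CPM.

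Receptors at the ends of the Kirrel2 to Kirrel3 ratio show what lies behind these ranges. Olfr1370 cells (3 in each of 3 libraries) had Kirrel2 at 82.6, 185 and 168 CPM in swap replicate 1 and control replicates 1 and 2, and Kirrel3 at 0 in each; in all, 17 UMIs of Kirrel2 and 0 of Kirrel3 were counted. In the same sums Epha5 was at 881, 529 and 744 CPM and Efna5 at 110.2, 26.5 and 96.002 CPM. Olfr365 cells were alike in the pooled sum, with Kirrel2 at 127 CPM, Kirrel3 at 0 (15 and 0 UMIs), Epha5 at 616 CPM and Efna5 at 152 CPM, although their sum in swap replicate 2 held no Kirrel2 UMI either. Cells of Olfr239, the third at this end, had 92.3 CPM of Kirrel2, 7.69 of Kirrel3, 408 of Epha5 and 277 of Efna5. Their Kirrel2 UMIs came from 2 of the 4 libraries, 4 in swap replicate 2 and 8 in control replicate 2.

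At the other end, Olfr1030 cells had Kirrel3 at 111, 165 and 150.0 CPM in swap replicate 2 and control replicates 1 and 2, and Kirrel2 at 18.4, 82.7 and 42.9 CPM. The level of Kirrel3 was above its median over the 24 receptors (41.8 CPM) in each of these 3 libraries. Olfr827 cells held no Kirrel2 UMI in any of their 3 libraries and 2 of Kirrel3, with Efna5 at 638, 294 and 1033 CPM and Epha5 at 111, 58.8 and 0 CPM in swap replicate 2, control replicate 1 and gg8tTA control. Olfr531 cells, in 4 libraries, had 31.7 CPM of Kirrel2, 72.5 of Kirrel3, 213 of Epha5 and 285 of Efna5. Olfr449, named after its values were seen, held Kirrel2 at 159 and Kirrel3 at 48.4 CPM, so a high level of Kirrel2 did not go with the absence of Kirrel3 there. With a few UMIs per sum, a value of 0 is compatible with up to 3 counts, and these extremes were chosen by the values given.

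**Figure D3:**
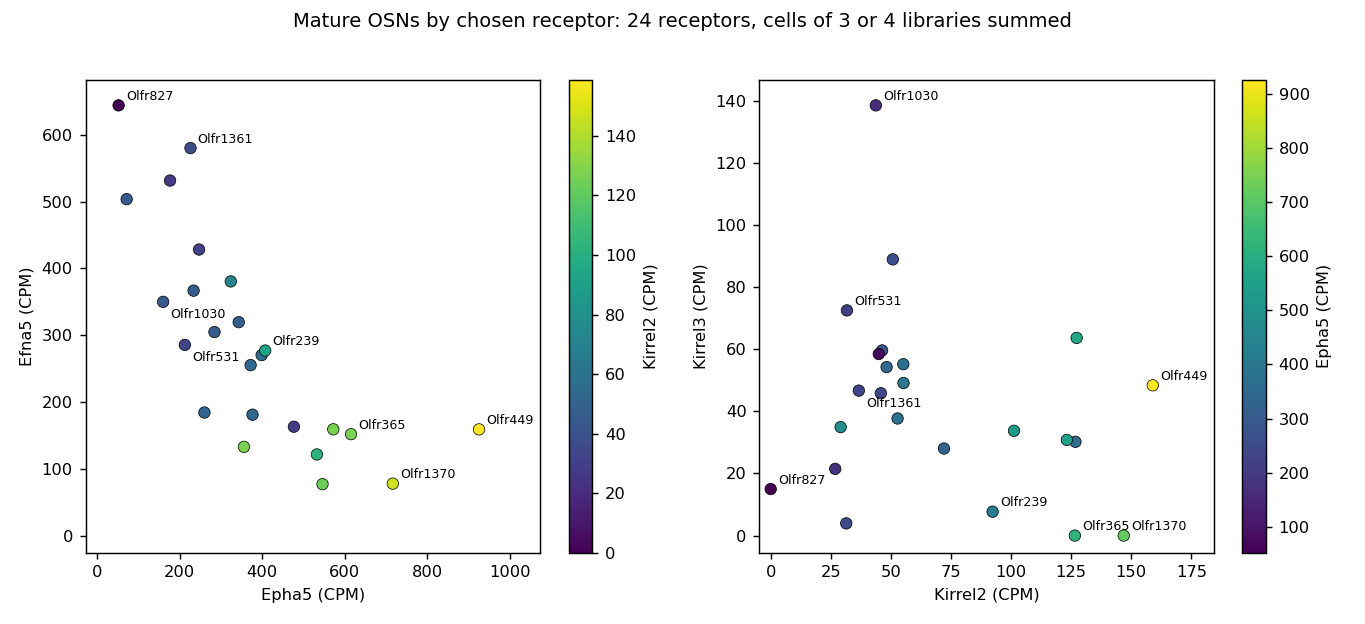
Efna5 against Epha5 (left, coloured by Kirrel2) and Kirrel3 against Kirrel2 (right, coloured by Epha5) in mature OSNs by chosen receptor, in CPM, 1 point for each of 24 receptors with its cells summed over 3 or 4 libraries. Points fall from Olfr827 (Epha5 52.4, Efna5 644) to Olfr449 (926, 159) on the left, and spread widely on the right. Receptors differ in which libraries are summed.

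As a description, Spearman's rho across the 24 receptors was −0.86 between Epha5 and Efna5, 0.82 between Kirrel2 and Epha5, −0.78 between Kirrel2 and Efna5, 0.71 between Epha5 and Sema7a and −0.14 between Kirrel2 and Kirrel3. Across 253 receptors with at least 5 cells in the 4 swap and control libraries together, the same values were −0.70, 0.62, −0.69, 0.57 and −0.47. Kirrel3 and Efna5 had a rho of 0.11 across the 24 and 0.44 across the 253 receptors, and across the latter Ncam2 and Nqo1 one of −0.74. The receptors share libraries, depth and, in part, zone, and these sums pool libraries that differ in level. Within single libraries, where sums hold fewer cells, the mean rho over 5 libraries was weaker. It was −0.42 between Epha5 and Efna5 (−0.54 to −0.16) and 0.25 between Kirrel2 and Epha5 (−0.051 to 0.34). For Kirrel2 and Efna5 it was −0.29 (−0.42 to −0.18), for Epha5 and Sema7a 0.19, and for Kirrel2 and Kirrel3 −0.12. With libraries pooled by genotype, over 89 receptors, rho between the swap and the control libraries was 0.79 for Ncam2, 0.75 for Efna5, 0.68 for Epha5, 0.59 for Kirrel, 0.57 for Kirrel3, 0.53 for Kirrel2 and 0.36 for Sema7a, and 0.20 for Ncam1 and 0.16 for Efna3. Between single libraries, with fewer cells per receptor, rho was 0.78 for Efna5 and 0.50 for Epha5 between control replicates 1 and 2 (30 receptors), and 0.68 and 0.67 between the swap replicates (23 receptors). For Kirrel3 it was 0.51 and 0.50, for Kirrel 0.44 and 0.26, and for Kirrel2 −0.039 and 0.060, so the order of receptors by Kirrel2 was not seen to repeat between single libraries.

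The between-receptor share of a gene's variance over single cells, from receptors with at least 5 cells in a library, had a mean of 20.6% for Ncam2 and 20.1% for Epha5, ranks 44 and 45 of 6448 genes with a median of 0.123%. Efna5 had 14.2%, Kirrel2 10.3%, Kirrel 9.75%, Sema7a 7.67%, Kirrel3 5.38% and Ncam1 0.104%, and Efna3 was in too few cells. The spread over the 4 libraries was wide, with an SD of 20.02 for Epha5 and 18.9 for Efna5, and in swap replicate 1, with 5 receptors, the estimates of Epha5 and Efna5 were below 0. That library, with 25 cells, raised the means of Ncam2 and Kirrel. Ncam2 was at 42.6% there, against 14.4%, 6.89% and 18.4% in swap replicate 2 and control replicates 1 and 2. Kirrel was at 22.6%, against 9.08%, 0.996% and 6.37%. Kirrel2 was at −3.26% in swap replicate 2, which had 37 receptors, and at 15.5%, 14.1% and 14.9% in swap replicate 1 and control replicates 1 and 2. With receptors of at least 3 cells in 5 libraries, Efna5 led the members at 23.6% ± 4.84 (rank 34), Epha5 had 13.8% and Kirrel had 0.669%, while Ncam1 went to 6.58% (rank 418). Thinned to 1000 UMIs, Kirrel2 was at −0.069%, Sema7a at 2.08% and Ncam2 at 5.42%, and Epha5 at 11.5% and Efna5 at 11.2%. The shares of Kirrel, Kirrel2, Ncam1 and Sema7a thus depended on these settings. The 10 genes with the largest shares outside the 9 members were Nqo1, Pcp4l1, Tmsb4x, Cd55, S100a5, Cartpt, Tppp3, Acsm4, Mslnl and Calb2.

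The genes most like Kirrel2 across receptors, by the mean rho over 5 libraries with 23 to 119 receptors each, were Pcp4l1 (0.32), Ifi27 (0.30), S100a5 (0.29), Zzef1 (0.28) and 2010204K13Rik (0.26), and the least like were Efna5 (−0.29), B830017H08Rik (−0.28), Calb2 (−0.28), Rbms1 (−0.26) and Rab3b (−0.25). For Kirrel3 they were B830017H08Rik (0.30), Calb2 (0.29), Tubb4b (0.26), Cfap126 (0.24) and Ppp3ca (0.24), and among the least like were S100a5 (−0.31), Mical2 (−0.26), Selm (−0.24) and Stmnd1 (−0.23). These correlations are weak, from sums of few cells, and are given as a description. S100a5, an activity-dependent calcium-binding protein, and Calb2 (calretinin) thus lay at opposite ends for both genes. Calb2 also led the unnamed cells between immature and mature OSNs; the part of maturation stage in the differences between receptors was not tested.

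Of the 40 further guidance genes, 20 could be tested between receptors and 9 passed: Nrp1 (adjusted p = 1.3e-88), the teneurins Tenm2 (6.5e-64) and Tenm4 (4.4e-08), the plexin Plxna1 (1.0e-51), the protocadherins Pcdh17 (2.3e-33) and Pcdh19 (8.7e-14), and also Pcdh10, Epha7 and Plxna3.

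Because receptors are chosen by zone, the receptors were also tested in sets, by whether most of their cells were Nqo1-positive. Among receptors of mainly Nqo1-negative cells, 5.23% of 10557 genes and the same 7 members differed between receptors. This set was not of a single zone. It held Olfr769 (47.8% Nqo1-positive cells, Ncam2 at 0 CPM), Olfr1395 (33.3%, 38.1 CPM), Olfr222 (25%, 196 CPM) and Olfr164 (20%, 48.3 CPM). Among the 3 receptors of mainly Nqo1-positive cells (Olfr1030, Olfr1361 and Olfr649), 0.555% of 11175 genes did, and Efna5 was the only member of 8 tested that passed (adjusted p = 5.5e-06; DESeq2, 0.65; without control replicate 2, 0.050002). Efna5 was at 349.8, 580.0 and 181 CPM in cells of these 3 receptors, and Ncam2 was at 0 in each. Olfr649, the lowest in Efna5, had 60% Nqo1-positive cells and is a class I receptor (Olfr543 to Olfr692). Olfr1030 and Olfr1361 are of class II, so for Olfr649 receptor and class cannot be told apart. In the Nqo1-negative set, Kirrel2 did not pass with DESeq2 (adjusted p = 0.22) and Kirrel3 did not with DESeq2 (0.40) or without control replicate 2 (0.095), swap replicate 1 (0.081) or swap replicate 2 (0.20).

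Mature OSNs were then compared by Nqo1 status, Nqo1-positive cells having at least 2 UMIs of Nqo1 and Nqo1-negative cells none. Nqo1 was seen in 16.3% to 33.4% of sustentacular cells, unthinned. Ncam2 and Kirrel2 were lower and Kirrel3 was higher in Nqo1-positive cells, 3 of 9 members past both limits, whereas 1.47% of 10310 genes were higher and 2.70% lower. Epha5, Sema7a and Efna5 differed in the test by less than the fold limit. Kirrel (log2 fold change 0.06), Ncam1 (0.03) and Efna3 (0.33) did not pass.

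Ncam2 was at 6.17, 2.62, 14.5, 16.9, 8.50 and 8.81 CPM in Nqo1-positive and at 117, 111, 122, 175, 61.7 and 67.1 CPM in Nqo1-negative cells. The log2 fold change was −3.53 ± 0.15 (SE, adjusted p = 2.4e-13), with no overlap between the classes. Kirrel2 was at 41.8, 39.0, 38.9, 52.0, 124 and 61.6 CPM in Nqo1-positive and at 79.9, 57.5, 72.2, 97.6, 114 and 98.8 CPM in Nqo1-negative cells. It was lower in the Nqo1-positive cells of 5 libraries and higher in those of tetOP2 (log2 fold change −0.61 ± 0.10, adjusted p = 1.5e-04). Kirrel3 was at 58.4, 61.9, 48.5, 44.3, 36.4 and 72.6 CPM in Nqo1-positive against 34.5, 49.4, 28.4, 27.1, 27.0 and 50.7 CPM in Nqo1-negative cells. It was higher in the Nqo1-positive cells of every library (0.61 ± 0.07, adjusted p = 4.6e-06). Both Kirrel calls lie at the fold limit: each was lost without control replicate 1, without swap replicate 1 and with Nqo1-positive cells taken from 1 UMI, and that of Kirrel2 also without control replicate 2 (−0.52). Over all processing alternatives, 8 calls of a member by Nqo1 status were lost, these included. Without tetOP2 the fold change of Kirrel2 was −0.78.

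Epha5 was lower in the Nqo1-positive cells of every library, at 310, 215, 296, 314, 103 and 80.6 CPM against 395, 320.3, 388, 488, 125 and 138 CPM (log2 fold change −0.48 ± 0.05, adjusted p = 2.5e-07). Efna5 was higher in 5 of 6 libraries, at 316, 422, 343, 395, 249 and 351 CPM against 238, 374, 229, 262, 284 and 293 CPM (0.36 ± 0.06, adjusted p = 4.6e-04); tetOP2 was again the exception. Sema7a was lower by 0.43 ± 0.07 on the log2 scale (adjusted p = 1.1e-04). Of 20 further guidance genes tested, Itgb1 (1.04), Efnb1 (1.00) and Sema3a (0.63) were higher, and the nephrin gene Nphs1, whose product is a relative and partner of the Kirrel proteins, was lower (−1.24). The median log2 fold change was 0.09 over these 20, 0.03 over the 9 members and 0.00 over all genes.

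Within Nqo1-positive cells, cells of class I receptors (the fish-like class, taken as Olfr543 to Olfr692) were compared with cells of class II receptors. The tetOP2 library had 19 such class I cells, under the minimum of 20. Its class II sum was in the fit and counted in the filter, but it gave no class I value. Kirrel3 and Ncam2 were lower in class I cells, 2 of 9 members, whereas 1.00% of 8489 genes were higher and 0.777% lower. Kirrel3 was at 25.5, 44.7, 41.0, 22.5 and 51.1 CPM in class I and at 72.4, 69.8, 52.5, 54.3 and 84.5 CPM in class II cells of the swap, control and gg8tTA control libraries (−0.79 ± 0.13, adjusted p = 6.0e-05). It was lower in class I in all 5 libraries. Ncam2 was at 4.68 CPM or less in class I cells and at 3.25 to 22.5 CPM in class II cells (−2.57 ± 0.39, adjusted p = 6.7e-06). Without thinning, Ncam2 was seen in 0% to 3.45% of the class I and 3.03% to 12.6% of the class II cells. Its range in sustentacular cells was 1.88% to 19.8%, matched neither for depth nor by library, so these counts may lie near the floor and hold free RNA. Efna5 (−0.33, adjusted p = 4.0e-04) and Ncam1 (0.15, 0.0064) differed by less than the fold limit. Of 15 further guidance genes tested, Nrp1 (−0.81) and Pcdh17 (−0.63) were lower in class I cells.

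The swap and control libraries were compared with 2 libraries each. None of the 9 members passed in mature OSNs, with edgeR or DESeq2, and 0 members had an unadjusted p under 0.05; 0.0410% of 12206 genes were higher and 0.107% lower in the swap. In immature OSNs 0 members passed with either tool and 1 (Epha5) had an unadjusted p under 0.05, beside 0.134% of 11194 genes higher and 0.0804% lower. Control replicate 2 kept 57.5% of its barcodes and had the most neuronal transcripts in sustentacular cells; its part in these differences was not tested.

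In mature OSNs the level of Kirrel2 was 63.9 and 50.4 CPM in the swap and 60.3 and 82.4 CPM in the controls, a log2 fold change of −0.33 ± 0.25 with overlapping groups. That of Kirrel3 was 43.1 and 53.9 against 35.1 and 32.7 CPM, without overlap, but the difference of 0.51 ± 0.22 had an adjusted p of 0.999985, as had those of all members. Epha5 (−0.29 ± 0.23), Efna5 (0.19 ± 0.26), Kirrel (−0.44 ± 0.42), Efna3 (0.28 ± 0.38), Ncam1 (−0.05 ± 0.25) and Sema7a (−0.17 ± 0.32) had standard errors close to their differences or larger. The fit behind these standard errors did not pair same-numbered swap and control libraries, which deviated together (correlation 0.617). Deviations shared by such a pair therefore add to these standard errors. A fit with a replicate block called no member. Ncam2 was at 73.2 and 69.3 CPM in the swap and 84.5 and 124 CPM in the controls (−0.55 ± 0.24). Detection of differences of this size was not measured. In immature OSNs, Epha5 was at 15.4 and 9.52 against 21.5 and 21.9 CPM (−0.80 ± 0.32, adjusted p = 0.99979), with a mean share of cells below that in sustentacular cells.

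The question whether the rise from immature to mature OSNs differed between swap and control was tested as an interaction. No gene of 12629 passed (0.00%) with edgeR, where 441 had an unadjusted p under 0.05 and DESeq2 called 27. Of the members, 1 had an unadjusted p under 0.05 (Epha5, 0.54 ± 0.18, adjusted p = 1) and DESeq2 called 0.

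Split by Nqo1 status, the swap against the control gave 0 of 9 members in Nqo1-positive cells by either tool, with 1 unadjusted p under 0.05, where 0.105% of 10519 genes were higher and 0.276% lower. It gave 0 of 9 in Nqo1-negative cells by either tool and 0 unadjusted, where 0.0871% of 11483 genes were higher and 0.383% lower. Without thinning, Ncam2 was seen in 2.42% to 9.62% of Nqo1-positive mature OSNs and in 1.88% to 19.8% of sustentacular cells. These ranges were matched neither for depth nor by library. After thinning, the range in sustentacular cells was 0.151% to 6.04%. The counts of Ncam2 in Nqo1-positive cells may thus hold free RNA, but were not shown to lie at the floor. Ncam2 in Nqo1-positive cells was the one with the low unadjusted p: it was at 6.17 and 2.62 CPM (13 and 11 UMIs) in the swap and at 14.5 and 16.9 CPM (56 and 81 UMIs) in the controls, without overlap (−1.94 ± 0.47, adjusted p = 0.63). It passed without control replicate 1 (adjusted p = 0.029) and without swap replicate 1 (0.0067), but not without control replicate 2 (0.058) or swap replicate 2 (0.98). The difference of the Nqo1 difference between genotypes was tested as an interaction, in which 0.315% of 11442 genes passed and 0 members, 2 having an unadjusted p under 0.05 and DESeq2 calling 0. These 2 were Ncam2 (−1.63 ± 0.30, adjusted p = 0.0895) and Efna5 (−0.33 ± 0.07, adjusted p = 0.28). The call of Ncam2 depended on the processing: its adjusted p was 0.00107 without the filter on low counts, 0.0037 without control replicate 1, 1.3e-05 without control replicate 2 and 2.4e-04 without swap replicate 1, but 0.54 without swap replicate 2 and 0.94 with DESeq2.

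In the tetOP2 library, 310 of the 509 mature OSNs with an assigned receptor (60.9%) had chosen Olfr17, against 0 to 5 cells in each other library. The comparison with the gg8tTA control has 1 library on each side, so the intervals given are exact 95% ones of counting error and no test was made. A gene was past the fold when its log2 ratio of CPM exceeded 0.58 in size with at least 20 UMIs in both groups together. In mature OSNs 3.35% of 11192 genes were higher by this rule and 6.29% lower. Kirrel3 was the only member past the fold, at 29.5 CPM in tetOP2 against 59.1 CPM in the control, a log2 ratio of −1.0 (−1.27 to −0.74), or −0.57 with mature OSNs gated by Omp and Gap43, which is short of the fold limit. Kirrel2 was at 118 against 85.1 CPM (0.47, 0.31 to 0.64), Epha5 at 116 against 115 CPM (0.01, −0.14 to 0.16) and Efna5 at 277 against 311 CPM (−0.17, −0.26 to −0.07). In immature OSNs 3.56% of 10603 genes were higher and 7.09% lower; Epha5 was past the fold, at 5.15 against 8.98 CPM, with an interval that included 0 (−0.78, −1.79 to 0.12). Efna5 was at 61.8 against 92.0 CPM (−0.57, −0.84 to −0.31).

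Within the tetOP2 library, the 310 Olfr17 cells were set beside the 199 cells of other receptors, where 4.24% of 9957 genes were higher in Olfr17 cells and 5.95% lower. Kirrel and Kirrel3 were past the fold. Kirrel was at 35.6 CPM in Olfr17 cells and 12.9 CPM in the others (log2 ratio 1.44, 0.88 to 2.08), and Kirrel3 at 16.5 against 47.2 CPM (−1.51, −2.00 to −1.04). Sema7a was at 81.6 against 60.5 CPM (0.43, 0.14 to 0.73). Kirrel2 (110.4 against 122 CPM), Epha5 (109 against 129 CPM), Efna5 (271 against 278 CPM), Ncam1 (988 against 998 CPM) and Ncam2 (44.2 against 48.4 CPM) differed by less than the fold limit. The Nrp1 log2 ratio in the same comparison was −3.29, given without an interval and outside the naming rule, which needs an adjusted p. Genes with ratios larger in size included Bglap3 (−5.32) and Cabp2 (5.26).

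**Figure D4:**
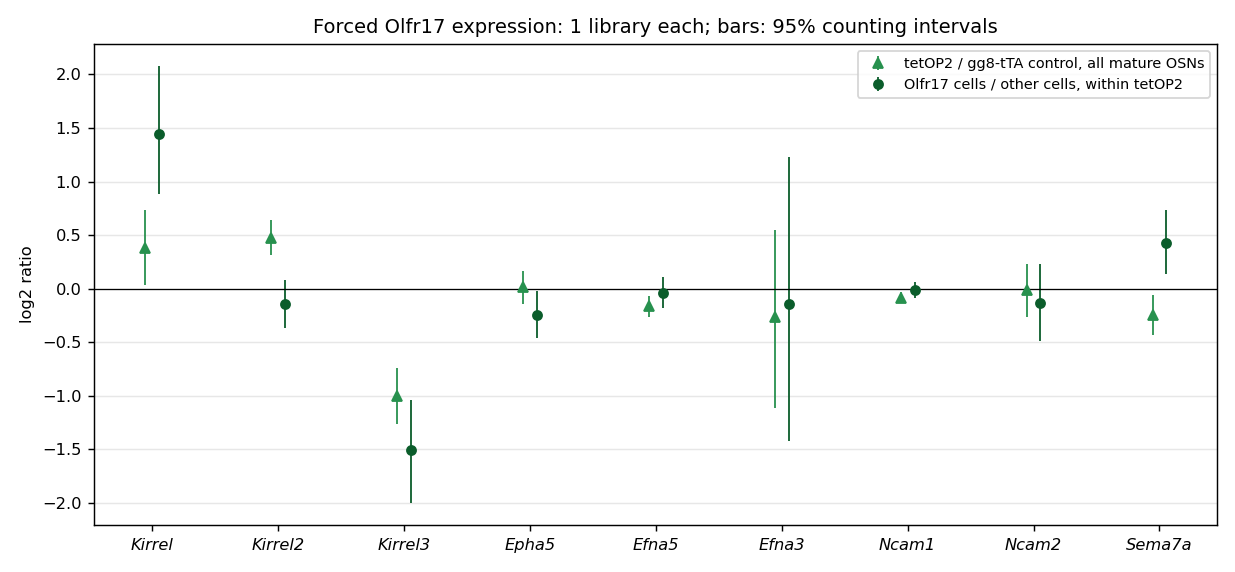
Log2 ratio of the level of each gene in all mature OSNs of tetOP2 over the gg8tTA control, and in Olfr17 cells over cells of other receptors within tetOP2; bars are 95% counting intervals. Kirrel3 lies below 0 in both (−1.0 and −1.51), and Kirrel lies highest in the second (1.44).

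The 12 Olfr17 cells of the other 5 libraries, pooled, had Kirrel at 69.9, Kirrel2 at 93.2 and Kirrel3 at 7.77 CPM, with Epha5 and Efna5 at 225 CPM each and Ncam2 at 155 CPM. Kirrel rested on 9 UMIs there (exact Poisson interval 31.96 to 133 CPM) and Kirrel3 on 1 UMI (0.197 to 43.3 CPM), and the level of Kirrel over all mature OSNs reached 70.4 CPM in control replicate 2, which gave 5 of the 12 cells. These cells are too few for a comparison. Among the 310 tetOP2 cells, Epha5 and Efna5 were seen together in 45 after thinning, where independence gives 42.9 (log2 odds ratio 0.19), while the 199 cells of other receptors had −0.79. Kirrel2 and Efna5 were together in 36 Olfr17 cells where independence gives 36.5 (−0.05), against −0.79 in the others. Kirrel2 and Kirrel3 were together in 2 Olfr17 cells where independence gives 3.58 (−0.81), against −1.32 in the others.

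Cells that all expressed Olfr17 could be split by Nqo1 status, 81 positive against 205 negative. Of 8767 genes 6.32% were higher and 9.62% lower past the fold. Kirrel2 was at 156 CPM in Nqo1-positive and 92.7 CPM in Nqo1-negative Olfr17 cells (0.75, 0.43 to 1.07), and Efna5 at 174 against 304 CPM (−0.80, −1.07 to −0.55). Both signs were opposite to those in tetOP2 cells of other receptors, 56 positive against 122 negative (7.53% of 8046 genes higher and 9.94% lower), where Kirrel2 was at 91.8 against 129 CPM (−0.48, −0.94 to −0.06) and Efna5 at 329 against 249 CPM (0.40, 0.15 to 0.65). Ncam2 was lower in Nqo1-positive cells in both, at 7.85 against 60.9 CPM in Olfr17 cells and 7.91 against 64.9 CPM in the others. Kirrel3 was at 11.2 against 18.8 CPM in Olfr17 cells (10 and 42 UMIs; −0.69, −1.91 to 0.27) and at 69.6 against 39.1 CPM in the others (0.84, 0.24 to 1.42). Epha5 was at 121 against 108 CPM in Olfr17 cells (0.17, −0.18 to 0.50) and at 87.0 against 151 CPM in the others (−0.79, −1.25 to −0.37).

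**Figure D5:**
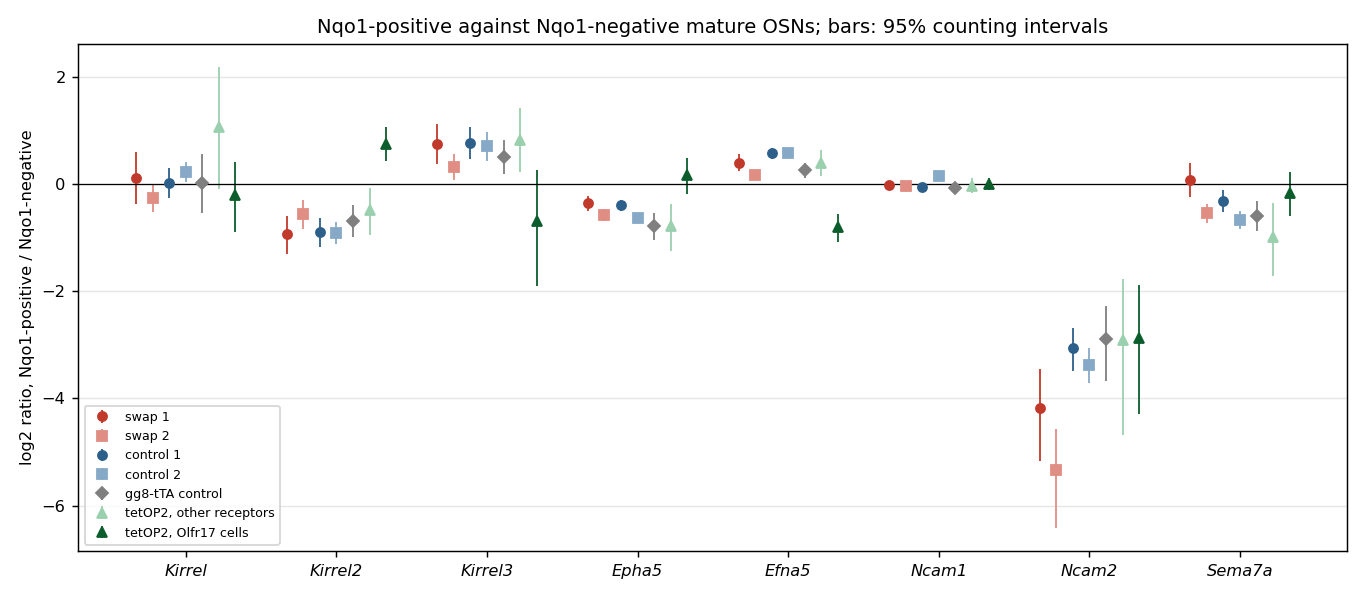
Log2 ratio of the level in Nqo1-positive over Nqo1-negative mature OSNs for 8 of the genes, 1 point per library, with tetOP2 split into Olfr17 cells and cells of other receptors; bars are 95% counting intervals. Ncam2 lies far below 0 everywhere. In the Olfr17 cells Kirrel2 (0.75) and Efna5 (−0.80) lie on the other side of 0 from every other point of the same gene. So do Kirrel3 (−0.69) and Epha5 (0.17), with bars that cross 0.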

How the data were processed

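Cells of papain-dissociated olfactory epithelium were run on Chromium v3, and the authors deposited UMI counts per gene and cell from Cell Ranger with intronic reads (mm10 per the labels; the swap and control file headers name version 3.1.0). Part of the genotype labels and a gene that the naming rule gives are not reported here. The members, lists and tests were chosen with earlier results of these data known.

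Barcodes under 1000 UMIs or 500 genes were dropped, and the cells with the highest Scrublet scores were removed as doublets (0.8% per 1000 cells). Cells were clustered in scanpy 1.11.5 separately for the swap and control and for the gg8-tTA libraries, and named from fixed markers. Counts were summed per library and class of cells, since cells are not replicates, and tested with edgeR 4.0.16 (glmQLFit, TMM, filterByExpr, Benjamini-Hochberg over all genes), with library as a covariate in comparisons within libraries. The study describes 2 biological replicates; the labels give replicate numbers but not the animals. The receptor test was planned with at least 5 cells per sum, which left 1 receptor; 3 cells, TMMwsp and a UMI in 10% of the sums replaced it after the data were seen, and the planned 10-cell minimum of the variance shares was replaced by 5 and 3.

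The genes named were the members; of the guidance list, up to 6 called genes with the lowest adjusted p; the 3 receptors at either end of the Kirrel2 to Kirrel3 ratio; and the 10 genes with the largest between-receptor shares. Alternatives were DESeq2 1.42.0, other scaling and filters, each library left out, a replicate block, doublets kept, 3000 UMIs per cell, and mature and immature OSNs gated by Omp and Gap43. In simulated counts with 50 genes per log2 fold of 1, 2, 3 and 4, the stage test recovered 45, 46, 48 and 49, the swap test in mature OSNs 27, 49, 49 and 47, the Nqo1 test 45, 48, 49 and 49, and the receptor test 7, 24, 31 and 41. False calls in these simulations numbered 1, 10, 6 and 1. The simulated counts had a preset spread and no differences between libraries, so the recoveries do not measure detection in the real data. Totals of 32005196 to 63277934 UMIs per library set the precision, and intervals cover counting error only.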

Additional observations from a re-analysis of the deposited data

Results flagged for a closer look

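In tetOP2 cells with Olfr17, Kirrel2 and Efna5 moved with Nqo1 status in the direction opposite to that in all other sets of cells. Both were flagged by a rule that asked for this and for a counting interval of a single sign. How many of all genes meet the rule was not computed. Kirrel3 (−0.69, −1.91 to 0.27) and Epha5 (0.17, −0.18 to 0.50) also had the opposite sign to every other set, with intervals that spanned both signs. The log2 ratio of Nqo1-positive over Nqo1-negative cells was 0.75 for Kirrel2 in Olfr17 cells (0.43 to 1.07, 95% counting interval), against −0.48 in tetOP2 cells of other receptors and −0.93 to −0.56 in the other 5 libraries. It was −0.80 for Efna5 (−1.07 to −0.55), against 0.40 in tetOP2 cells of other receptors and 0.18 to 0.59 in the other 5 libraries. The split was made in 1 library, so the difference was not tested.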

How the results depend on the processing

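The values of the 9 members were recomputed 1131 times under the alternatives, and 1041 were counted as unchanged. For tested values this means the same side of the threshold and, where there is one, the same direction. Values without a test were unchanged when they stayed within their spread. Among the rest, 22 lost their call, 7 gained one, 49 changed sign and 12 values without a test moved by more than their spread. With the gate, these were Kirrel3 (−0.57), Efna5 (0.080), Ncam1 (0.055) and Ncam2 (0.24) in tetOP2 against its control, Efna5 in immature OSNs (−0.25), and Efna5 (−0.22) and Ncam1 (−0.28) in Olfr17 against other cells; the other 5 were variance shares of Kirrel2, Ncam1 and Sema7a. The swap comparison was the least stable: 18 genes were called in mature OSNs, 170 with DESeq2, 100 without the filter on low counts, 0 with relative log expression size factors, with doublets kept, with at least 3000 UMIs per cell or with cells gated by Omp and Gap43, and 201 to 266 with 1 library left out. A replicate block gave 0 calls there and 55 against 24 in immature OSNs. Same-numbered swap and control samples deviated together (correlation 0.617 in mature and 0.569 in immature OSNs), but there were only 2 pairs, and the block called no member. In immature OSNs DESeq2 called 50, no filter 145, and 1 library left out 48 to 361. The stage by genotype count of 0 became 27 with DESeq2, 4 without the filter and 0 to 15 with a library left out. The count by Nqo1 status (430) became 1271 without the filter and 249 with the gate, and that by Nqo1 status and genotype (36) became 5, 65 and 45 to 83 with DESeq2, no filter and a library left out. In Nqo1-positive cells the swap count (40) was 162 without the filter and 245 to 303 with a library left out; in Nqo1-negative cells (54) it was 113 with DESeq2, 94 without the filter and 147 to 216. The receptor count (655) was 347 with DESeq2, 410 with filterByExpr, 1089 with the gate, 282 with sums of at least 4 cells and 396 to 642 with a library left out; for mainly Nqo1-positive receptors (62) it was 10 with DESeq2 and 34 to 60, and for mainly Nqo1-negative ones (552) it was 283 and 351 to 592. By class, 151 calls became 83 with DESeq2 and 600 without the filter. With the gate, 1800 genes were past the fold in tetOP2 against 1079, and 1970 between Olfr17 and other cells against 1014. The cause of these changes was not tested.

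The mean log2 odds ratio of Kirrel2 and Kirrel3 was −0.27 with 1000 UMIs, −0.85 with the gate (exact permutation p = 0.0625) and −0.68 to −0.43 with a library left out. In immature OSNs it was 1.52 (exact permutation p = 0.03125). That value rests on 2 cells with both genes, where independence gives 1.54, and on the 0.5 added to each count. It is not read as the genes going together. The mean log2 odds ratio of Epha5 and Efna5 was −0.32 with 1000 UMIs, 0.52 unthinned, −0.25 unthinned from 2 UMIs and −0.20 with the gate. It was −0.0063 in immature OSNs and −0.70 to −0.52 with a library left out. With 5 libraries the exact permutation test cannot go below 0.0625. The stage by genotype difference of Kirrel3 was 0.039 with DESeq2 and that of Ncam2 −0.020 without the filter, both of the opposite sign. Leaving out 1 library at a time changed the sign of some log2 differences, none of which had passed. They ranged, for stage by genotype, −0.10 to 0.71 for Kirrel, −0.25 to 0.10 for Kirrel2, −0.43 to 0.63 for Kirrel3, −0.21 to 0.32 for Efna5, −0.081 to 0.10 for Ncam2 and −0.49 to 0.092 for Sema7a. The range was, for swap against control in mature OSNs, −0.13 to 0.43 for Efna5, −0.12 to 0.58 for Efna3, −0.23 to 0.14 for Ncam1 and −0.56 to 0.12 for Sema7a. They were, for swap against control in immature OSNs, −0.60 to 0.15 for Kirrel2, −0.091 to 0.29 for Efna5, −0.65 to 0.22 for Efna3, −0.10 to 0.18 for Ncam1 and −0.043 to 0.11 for Sema7a. The range was, for Nqo1 status by genotype, −0.042 to 0.33 for Kirrel2, −0.43 to 0.0079 for Kirrel3, −0.10 to 0.18 for Epha5, −0.21 to 0.26 for Efna3, −0.17 to 0.0047 for Ncam1 and −0.055 to 0.57 for Sema7a. They were, for swap against control in Nqo1-positive cells, −0.25 to 0.18 for Efna5, −0.017 to 0.52 for Efna3, −0.33 to 0.13 for Ncam1 and −0.18 to 0.12 for Sema7a. The range was, for swap against control in Nqo1-negative cells, −1.0 to 0.075 for Kirrel, −0.065 to 0.60 for Efna5, −0.28 to 0.65 for Efna3, −0.20 to 0.13 for Ncam1 and −0.77 to 0.16 for Sema7a. They were, for Nqo1-positive against Nqo1-negative cells, −0.013 to 0.15 for Kirrel. The range was, for class I against class II, −0.078 to 0.013 for Epha5. Sums of few cells per receptor hold few UMIs, which limits the values by receptor.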
